A study of Ovis aries with 9 samples.

Results

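The effect of the FecB genotype was examined within 1 breed, by setting the ovaries of 3 Small Tail Han ewes homozygous for the FecB allele (Han BB, libraries W1, W2 and W4) against those of 3 Small Tail Han ewes homozygous for the wild-type allele (Han ++, libraries W6, W7 and W8). These 6 libraries were chosen by the breed and genotype in the sample labels, out of 9 RNA-seq libraries in all, and the other 3 come from Dorset ewes. All of the ewes were adults kept under similar conditions and genotyped from blood, and both genotypes received the same synchronisation, a progestagen sponge followed by pregnant mare serum gonadotropin. Whole ovaries bearing ovulation points were taken soon after the next spontaneous estrus, and each library holds the RNA of 1 ewe. With 3 ewes per genotype, any other difference between the ewes, such as kinship or the exact stage after estrus, cannot be told apart from the genotype.

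FecB, the Booroola allele, is a glutamine-to-arginine change in the kinase domain of BMPR1B, a type I receptor for bone morphogenetic proteins (BMPs). BMP ligands bring type I and type II receptors together, the type I receptor then phosphorylates SMAD1, SMAD5 and SMAD9, and these act with SMAD4 on target genes such as those of the ID family. In sheep follicles, BMP signals from the oocyte and the granulosa cells temper the response to gonadotropins, and ewes that carry FecB ovulate more follicles, which mature at a smaller size. The change lies in the coding sequence of the receptor.

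The 6 libraries held 10803913 to 20992535 assigned reads each. Values are given as CPM, a gene's reads relative to the library's total after TMM scaling, always in the order W1, W2, W4 for Han BB and W6, W7, W8 for Han ++, and they compare a gene between libraries, not 1 gene with another. Markers of the ovary were present in every library, among them the oocyte factor GDF9 (1.28 to 4.78 CPM), the gonadotropin receptors FSHR (5.45 to 14.6 CPM) and LHCGR (19.8 to 35.7 CPM), the steroidogenic genes STAR (48.4 to 216 CPM) and CYP11A1 (74.0 to 443 CPM) and the smooth muscle actin ACTA2 (1344 to 2986 CPM). Aromatase (CYP19A1) and FOXL2 had no row under those names. OVGP1, a secretory product of the oviduct, was also present in all 6 (768 to 1849 CPM), and whether the dissected tissue held oviduct was not tested. In whole ovaries, fewer cells of a type and less RNA per cell cannot be told apart.

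Library W4, of Han BB, stood apart from the other 5. It lay at 105.8 on the first principal component (46.2% of the variance), where the others lay between -47.5 and 2.29. Between W4 and the other Han BB libraries, 34.3% and 39.1% of the tested genes differed by more than 2-fold, while W1 and W2 differed in 14.3% and the Han ++ libraries among themselves in 10.4% to 15.1%. The weight that limma gave W4 from its residuals was 0.173, against 1.08 to 1.77 for the rest. The labels give no reason for this. Medians of gene groups are therefore given with and without W4, as are the differences of some genes in which W4 stood far from the other libraries. A gene given without such a value can depend on W4 too.

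BMPR1B, the gene that carries the FecB change, has a pair of rows in the table. The row named BMPR1B.1 held 99.9% of the gene's reads, with 3562, 2528 and 2484 reads in Han BB and 4100, 4137 and 2744 in Han ++. Its level was 170.3, 179 and 167 CPM in Han BB against 198, 189 and 258 CPM in Han ++. The 3 Han BB values lie close together and all lie below the 3 Han ++ values, of which W8 is the highest. The means were 172 ± 6.4 CPM in Han BB against 215 ± 37.6 CPM in Han ++ (mean ± SD, n = 3 each), a log2 difference of -0.32 (SE 0.24, adjusted p = 0.985, Benjamini-Hochberg adjusted over all genes tested by edgeR's quasi-likelihood method), and of -0.29 without W4. The other row, named BMPR1B, held between 0 and 7 reads per library and was too low to test. What sets the rows of a gene apart is not given in the sources used here, and the counts do not show which allele was read.

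Across all genes, edgeR called no gene between the genotypes. Of 27174 rows, 15937 had enough reads to be tested, and 0 (percent called 0) met an adjusted p under 0.05 with a fold change above 1.5 in edgeR's quasi-likelihood test, in which the lowest adjusted p was 0.985. At an unadjusted p under 0.05, 232 genes were higher in Han BB (1.46% of those tested) and 220 were lower (1.38%). A further measure was how many of the 9 library pairs, each a Han BB with a Han ++ library, went the same way. The 3 Han BB values lay above all 3 Han ++ values for 782 genes (4.91%) and below them for 731 (4.59%). These percentages over all tested genes are the background against which the gene groups are read with all 6 libraries. With 3 libraries on each side, some genes fall wholly to 1 side even without any genotype difference. Whether more genes did so than that was not tested. Without W4 the background at an unadjusted p under 0.05 was larger, with 846 genes higher and 737 lower of 17267 tested. Group counts without W4 are to be read against that.

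DESeq2, run on the same 6 libraries, called 4 genes. Higher in Han BB were GCG (log2 difference 3.04, adjusted p = 0.0471), LOC101116132 (1.84, adjusted p = 0.0113) and LOC101104797 (7.34, adjusted p = 0.0385), and LOC101123097 was lower (-2.05, adjusted p = 0.00209). limma voom with quality weights, which counts W4 for less, called 0 genes, with 729 higher and 688 lower at an unadjusted p under 0.05 and a lowest adjusted p of 0.0722. Without W4, edgeR called only LOC101104797 (7.84, adjusted p = 0.000203), with 846 genes higher and 737 lower at an unadjusted p under 0.05.

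Most genes differed little. The median log2 difference was 0.04, and the lower and upper quartiles were -0.25 and 0.29. A fold above 2 was more often towards lower values in Han BB, with 620 genes lower and 281 higher, of which 219 and 97 went the same way in all 9 pairs. Low genes made up most of these: 26.6% of the 1017 genes under 1 CPM differed by more than 2-fold (215 lower, 56 higher), and 10.4% of the 4919 genes between 1 and 10 CPM, but 1.27% of the 8036 genes between 10 and 100 CPM and 0.763% of the 1965 genes over 100 CPM. The share of genes higher in Han BB in all 9 pairs grew with level, from 1.67% under 1 CPM to 6.21% over 100 CPM, while the share lower in all 9 went from 6.69% to 3.16%. Rows with at least 1 read numbered 22360 in W6 and 21435 in W8, and 18638 to 19690 in the other libraries. The typical standard error of a gene's log2 difference was 0.37 (median).

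**Figure D1:**
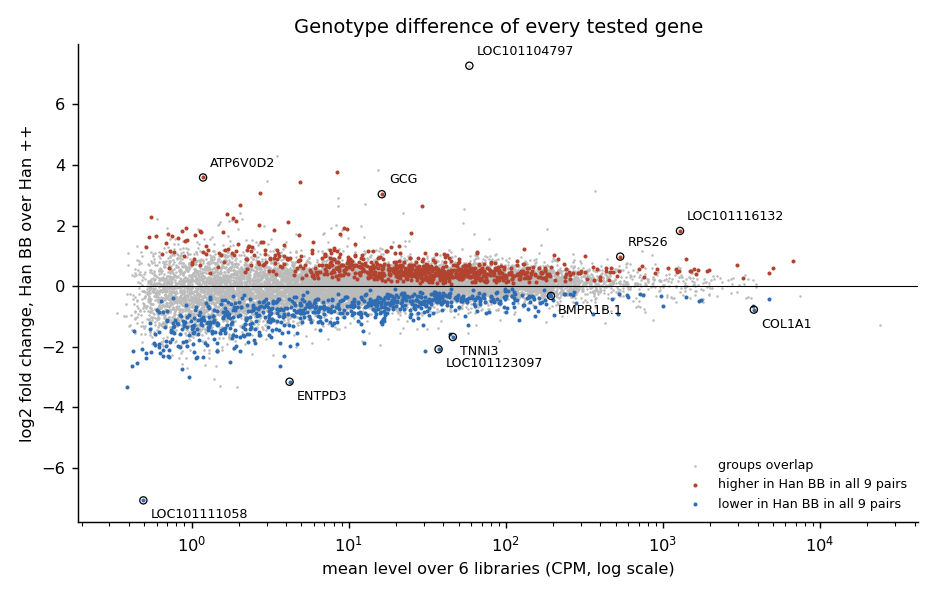
Log2 difference, Han BB minus Han ++, of each of the 15937 tested genes (vertical axis) against its mean level in CPM over the 6 libraries (horizontal axis, log scale). Red points (782 genes) are higher in Han BB in all 9 library pairs, blue points (731) are lower in all 9 and grey points overlap, and the spread narrows from left to right. The point for LOC101111058 is a fitted value against 0 reads in Han BB and is not a bound.

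The 10 genes with the smallest unadjusted p were LOC101123097, LOC101116132, TNNI3, LOC101104797, ROPN1L, TLR8, ENTPD3, LOC101111058, LOC101116694 and NAV2. LOC101123097, an uncharacterised protein-coding locus, was read at 10.2, 12.4 and 20.2 CPM in Han BB against 44, 73.9 and 62.9 CPM in Han ++. The groups lie far apart, with W4 the highest Han BB library, and the log2 difference was -2.08 (SE 0.34). LOC101116132, also known only by its number, went the other way, with 1847, 2108 and 2042 CPM in Han BB against 893, 359 and 441 CPM in Han ++. It was abundant and even in Han BB, while in Han ++ W6 held more than W7 and W8. The groups did not overlap, and the log2 difference was 1.82 (SE 0.38).

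TNNI3, ROPN1L and NAV2 were lower in Han BB. TNNI3, the inhibitory troponin of cardiac muscle, was at 24.5, 27.3 and 14 CPM in Han BB against 97.6, 63.4 and 49.1 CPM in Han ++, a log2 difference of -1.68 (SE 0.36). ROPN1L, a protein of sperm flagella and motile cilia, was at 11, 9.94 and 8.54 CPM in Han BB against 26.1, 19.7 and 21.2 CPM in Han ++, with the groups well apart and a log2 difference of -1.18 (SE 0.27). NAV2, a cytoskeleton-associated protein of growing axons, was at 13.5, 21.5 and 16.9 CPM in Han BB against 33.5, 34.5 and 56.8 CPM in Han ++ and differed by -1.26 (SE 0.31) on the log2 scale. In each of these 3 genes every Han BB ewe lay under every Han ++ ewe.

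TLR8, an endosomal receptor for single-stranded RNA found in myeloid cells, was the immune gene among the 10. Its values were 18.4, 11.3 and 17.7 CPM in Han BB against 7.25, 5.38 and 5.55 CPM in Han ++. W2 was the lowest of the Han BB libraries and still lay above all of Han ++, and the log2 difference was 1.38 (SE 0.32). ENTPD3, an ectonucleotidase that breaks down extracellular ATP, was at 0.574, 0.852 and 1.14 CPM in Han BB against 14.3, 6.52 and 1.79 CPM in Han ++. The Han ++ ewes spread widely, from W8, close to the Han BB range, to W6, and the log2 difference was -3.15 (SE 0.74).

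The last of the 10 were loci known by number. LOC101104797, which resembles the ubiquitin-like ribosomal fusion gene FAU, was at 194, 155 and 0.605 CPM in Han BB against 1.3, 0.456 and 0.376 CPM in Han ++. W1 and W2 had high levels and the other 4 libraries, W4 included, almost none. The log2 difference of 7.28 (SE 1.63) held in 8 of 9 pairs. LOC101111058, a butyrophilin-like gene, had 0 reads in all 3 Han BB libraries and 13, 16 and 17 in Han ++, so that it was at least 4.63-fold lower in Han BB, taking 3 counts per library as the floor. LOC101116694, annotated as a pseudogene, was at 1.43, 1.28 and 3.23 CPM in Han BB against 8.41, 7.98 and 5.83 CPM in Han ++ (log2 difference -1.91). Reads of pseudogenes and of genes with close copies can be lost or shared between copies when only unique alignments are counted, so the values of LOC101104797 and LOC101116694 are uncertain, as are those of genes that overlap another gene on either strand.

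**Figure D2:**
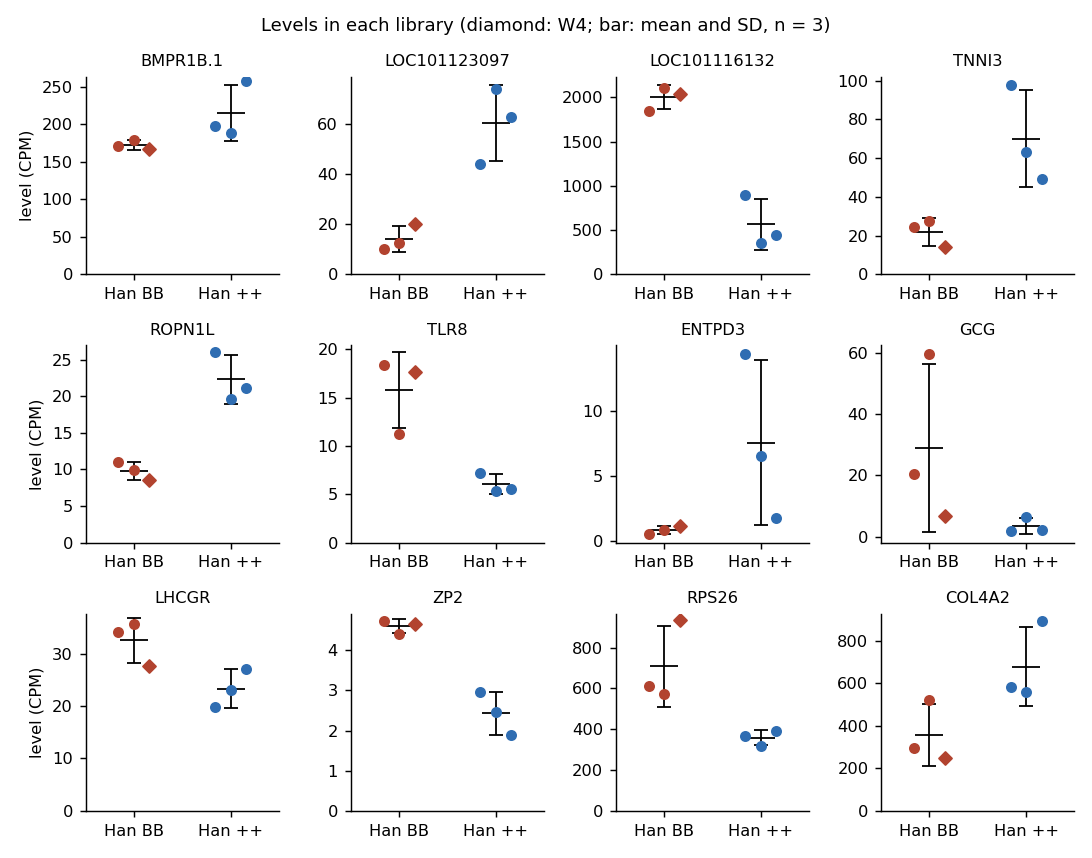
CPM in each library for 12 genes named in the text, 1 panel per gene, with Han BB and Han ++ side by side. The bar is at the mean with its SD, and W4 is drawn as a diamond. Han BB and Han ++ lie well apart in LOC101123097, LOC101116132, TNNI3, ROPN1L and TLR8, whereas in LHCGR the diamond of W4 sits only just above the highest Han ++ library.

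Ranked by size among named genes of at least 1 CPM that went the same way in all 9 pairs, the 10 largest differences towards higher values in Han BB were in ATP6V0D2, GCG, TMEM37, NOL4, KPNA7, CXCL14, ASIP, CER1, HOXA9 and GPR22. GCG, the proglucagon gene, was at 20.5, 59.6 and 6.86 CPM in Han BB against 1.84, 6.43 and 2.16 CPM in Han ++. W2 was far above the rest, and W4 exceeded the highest Han ++ library, W7, by little, and the log2 difference was 3.04 (SE 0.80, unadjusted p = 0.00442). ATP6V0D2, a subunit of the proton pump of osteoclasts and other acid-secreting cells, was at 1.34, 4.33 and 0.942 CPM in Han BB against 0.483, 0 and 0 CPM in Han ++ (log2 difference 3.59), a gene of few reads. CER1, a secreted antagonist of BMP and nodal ligands, was at 1.86, 1.63 and 1.34 CPM in Han BB against 0.918, 0.274 and 0.282 CPM in Han ++ (log2 difference 1.67, SE 0.73). ASIP, the agouti signalling protein that antagonises melanocortin receptors, was at 28.2, 52 and 35.2 CPM in Han BB against 16.7, 0.0912 and 17.2 CPM in Han ++. Its log2 difference was 1.77 (SE 1.05), and in W7 ASIP was nearly absent.

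The remaining 6 of these differed by 1.39 to 1.84 on the log2 scale. TMEM37, a regulatory subunit of calcium channels, was at 3.49, 5.32 and 6.93 CPM in Han BB against 1.84, 1.37 and 1.13 CPM in Han ++, with a log2 difference of 1.84 (SE 0.46, unadjusted p = 0.00318). CXCL14, a chemokine, reached 5.32 CPM in W2 and lay between 0.593 and 1.10 CPM in the other 5 libraries. HOXA9, a homeobox gene of the posterior trunk and the reproductive tract, was at 7.12, 13.6 and 5.31 CPM in Han BB against 1.59, 4.97 and 2.82 CPM in Han ++ (log2 difference 1.46, SE 0.53). Here W4 was the lowest Han BB library and lay only just above W7.

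The 10 with the largest differences towards lower values in Han BB were ENTPD3, CDSN, BST1, CAV1, TRNAR-UCG.1, HSD17B1, TMEM125, TFF2, KIF5A and PPFIA3. HSD17B1, which converts estrone to estradiol in granulosa cells, was at 3.4, 0.284 and 0.0673 CPM in Han BB against 6.19, 4.15 and 9.12 CPM in Han ++. W2 and W4 had almost none, W1 lay just under the lowest Han ++ library, and the log2 difference was -2.31 (SE 1.01, unadjusted p = 0.0493). TFF2, a trefoil peptide of mucous epithelia, was at 7.12, 24.8 and 2.02 CPM in Han BB against 29.6, 59.7 and 59.6 CPM in Han ++. Here W2 came close to the lowest Han ++ library, and the log2 difference was -2.13 (SE 0.75). CDSN, the corneodesmosin of cornified epithelium, was at 0.717, 1.92 and 0.404 CPM in Han BB against 3.87, 3.19 and 11.8 CPM in Han ++ (log2 difference -2.62, SE 0.74), with W8 standing well above the other Han ++ libraries.

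BST1, an ecto-enzyme of myeloid and stromal cells also called CD157, was at 0.574, 0.355 and 0.605 CPM in Han BB against 1.64, 2.37 and 4.98 CPM in Han ++ (log2 difference -2.52, SE 0.66). PPFIA3, a liprin of presynaptic sites, was at 0.813, 0.355 and 1.08 CPM in Han BB against 1.79, 2.65 and 5.55 CPM in Han ++ (log2 difference -2.12, SE 0.67), and in both genes W8 was the highest library. CAV1, the caveolin of endothelial cells, appears here only by its minor row, with 1 to 34 reads per library. Its main row, CAV1.1, was at 126, 134 and 62.1 CPM in Han BB against 139, 167 and 58.4 CPM in Han ++ and overlapped between genotypes.

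Genes that passed the unadjusted threshold were mostly those whose groups did not overlap. Of the 232 higher genes 188 (81%) lay above in all 9 pairs, and of the 220 lower genes 187 (85%) lay below in all 9. The reverse did not hold, since only 24% of the 782 genes higher in all 9 pairs and 25.6% of the 731 lower ones had an unadjusted p under 0.05. The median log2 difference was 0.50 among the former, with a range of 0.08 to 3.78, and -0.70 among the latter.

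The number of genes whose groups did not overlap depended more on W4 than on any other library. With W4 set aside, 2388 genes (15%) were higher and 2187 (13.7%) lower in all 6 remaining pairs. Setting aside another library in its place gave 1134 to 1683 higher and 1050 to 1776 lower. Between the genotypes, 26.9% to 39.8% of genes differed by more than 2-fold in the 3 pairs with W4, against 10.9% to 17.9% in the other 6, the latter close to the 10.4% to 15.1% among Han ++ ewes. The sign of the log2 difference was the same with and without W4 for 11390 genes (71.5%). Of the genes at an unadjusted p under 0.05 with all 6 libraries, 147 of the higher (63.4%) and 134 of the lower (60.9%) also had one without W4, where they made up 17.4% of 846 and 18.2% of 737.

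**Figure D3:**
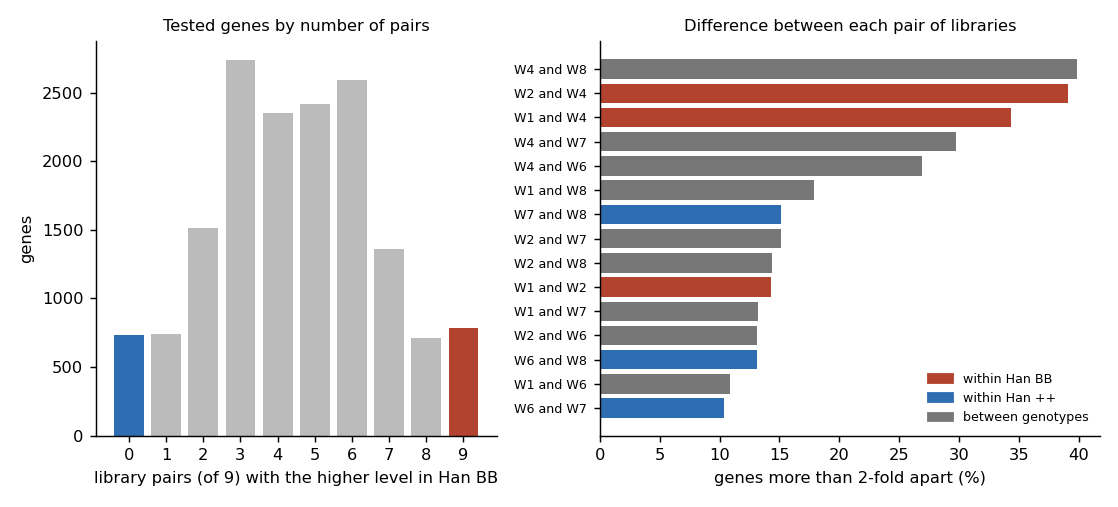
Left, number of tested genes (vertical axis) by the number of the 9 library pairs in which Han BB was higher (horizontal axis), from 731 genes at 0 pairs to 782 at 9. Right, percent of tested genes that differed by more than 2-fold in each pair of the 6 libraries, where the pairs with W4 reach from 26.9% to 39.8% and all others lie between 10.4% and 17.9%.

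In the lists of BMP receptors, ligands, antagonists and SMADs 0 genes had an unadjusted p under 0.05. CER1, described above and not in these lists, had one (0.0475). Of the 16 tested receptors of the BMP, activin and TGF-beta families, 8 were higher and 8 lower, and their median log2 difference was -0.01 (-0.00 without W4), against 0.04 over all genes. BMPR1B.1 was the only receptor of these 16 below in all 9 pairs. BMPR1A, the closest relative of BMPR1B, was at 315, 251 and 255 CPM in Han BB against 245, 279.6 and 196 CPM in Han ++ and overlapped. ACVR2A, a type II receptor for activins and BMPs, differed by 0.50 (SE 0.34), and ACVR1B, a type I activin receptor, by -0.55 (SE 0.35).

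Among the 18 tested SMADs and BMP target genes 0 passed the unadjusted threshold, 9 were higher and 9 lower, and the median was -0.00, but -0.11 without W4 and -0.07 with limma voom. SMAD5, which BMP receptors phosphorylate, was at 86.1, 76 and 113 CPM in Han BB against 70.9, 74.7 and 67.8 CPM in Han ++. All 3 Han BB values lay above, W2 by very little, and the log2 difference was 0.36 (SE 0.24), 0.19 without W4. SMAD3, which carries activin and TGF-beta signals, was at 39.6, 29.1 and 31.7 CPM in Han BB against 40.8, 40.3 and 50.2 CPM in Han ++ and lay below in all 9 pairs, with a log2 difference of -0.38 (SE 0.24). SKI, a repressor of SMAD complexes, was also below in all 9 (log2 difference -0.36, SE 0.31).

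The ID genes, direct BMP targets, overlapped between genotypes. ID1 was at 26.2, 31.9 and 20 CPM in Han BB against 25.1, 19.3 and 27.9 CPM in Han ++ and ID3 at 44.7, 32.3 and 17.6 CPM in Han BB against 31.7, 29.8 and 47.2 CPM in Han ++. Their log2 differences were 0.11 (SE 0.28) and -0.20 (SE 0.37), and the sign of each changed when 1 library was left out. Of the 19 tested BMP ligands and antagonists 0 passed, and their median of 0.01 (0.02 without W4) was -0.20 without W2 and -0.28 with limma voom. BMP4, which theca cells make, was at 19.9, 18.8 and 10.1 CPM in Han BB against 12.3, 11.9 and 7.52 CPM in Han ++ (log2 difference 0.62, SE 0.35, and 0.87 without W4), and BMP1, a protease that cleaves the BMP antagonist chordin and procollagens, lay below in all 9 pairs (log2 difference -0.53, SE 0.32). BMP15, the oocyte ligand that works beside GDF9, had 0 to 15 reads and was not tested.

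The inhibins and their partners were all lower on average in Han BB, and all but AMH overlapped. All 5 tested members, INHA, INHBA, INHBB, FST and AMH, had a negative log2 difference, with a median of -0.75 (-0.80 without W4), and 0 of 5 had an unadjusted p under 0.05. AMH, a hormone of small growing follicles, was at 1.24, 0.568 and 0.336 CPM in Han BB against 1.79, 1.32 and 2.44 CPM in Han ++ and was the only member below in all 9 pairs, with a log2 difference of -1.33 (SE 0.70, unadjusted p = 0.0883). INHA, the shared subunit of the inhibins, was at 45.1, 69.1 and 13.7 CPM in Han BB against 62.1, 69.6 and 97.1 CPM in Han ++ (log2 difference -0.84, SE 0.50). Of the Han BB libraries, W4 was the lowest for INHA and the highest for INHBA, the activin beta A subunit, which was at 15.6, 74.2 and 91.8 CPM in Han BB against 28.4, 110.2 and 144 CPM in Han ++ (log2 difference -0.64, SE 0.69).

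LHCGR, the receptor for luteinizing hormone, lay above in all 9 pairs. It was at 34.2, 35.7 and 27.7 CPM in Han BB against 19.8, 23.1 and 27.1 CPM in Han ++, a log2 difference of 0.48 (SE 0.25, unadjusted p = 0.0896), with W4 only just above W8, and the difference without W4 was 0.59. NR3C2, the mineralocorticoid receptor, which also binds progesterone, was at 35, 28.5 and 33.3 CPM in Han BB against 21.1, 23.8 and 15 CPM in Han ++, also above in all 9 pairs, with a log2 difference of 0.69 (SE 0.27, unadjusted p = 0.031). FSHR, the follicle-stimulating hormone receptor of granulosa cells, was at 9.9, 7.95 and 5.45 CPM in Han BB against 14.6, 6.61 and 13.4 CPM in Han ++ and overlapped, with a log2 difference of -0.57 (SE 0.39). Over the 7 tested gonadotropin, steroid and prolactin receptors 1 was at an unadjusted p under 0.05, higher, and 0 lower. The median of the 7 fitted differences was -0.08 (0.07 without W4), although the median taken in each library pair was above 0 in 9 of 9 pairs (0.01 to 0.48).

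Granulosa and theca genes leaned lower in Han BB. Of 10 tested, 8 were lower in Han BB and 1 of them, HSD17B1, passed the unadjusted threshold, with a median of -0.26 (-0.20 without W4) that was below 0 in 9 of 9 library pairs (-1.225 to -0.014). INSL3, a hormone of theca cells, was at 12, 7.38 and 3.03 CPM in Han BB against 9.28, 14.2 and 10.8 CPM in Han ++ (log2 difference -0.61, SE 0.47), and NR0B1, a repressor of steroidogenic genes, was one of the 2 higher members at 13.7, 16.5 and 3.29 CPM in Han BB against 5.41, 5.88 and 9.03 CPM in Han ++ (log2 difference 0.73, SE 0.54, and 1.18 without W4). CYP17A1, the androgen-forming enzyme of theca cells, was at 5.59, 70.2 and 2.83 CPM in Han BB against 6.62, 69.8 and 64 CPM in Han ++, so that ewes of the same genotype lay far apart.

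Luteal genes overlapped between the genotypes. Of 12 tested, 0 passed the unadjusted threshold, 5 were higher and 7 lower, and the median was -0.18 (-0.02 without W4). OXT, the luteal hormone oxytocin, was at 193, 730.2 and 9.62 CPM in Han BB against 271, 571 and 731 CPM in Han ++, with W4 far below any other library. STAR and CYP11A1, which move cholesterol into mitochondria and cut its side chain, differed by 0.05 (SE 0.47) and -0.17 (SE 0.62), and the sign of both turned when single libraries were left out.

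Zona pellucida genes, which coat the oocyte, were higher on average in Han BB. ZP2 was at 4.73, 4.4 and 4.64 CPM in Han BB against 2.95, 2.46 and 1.88 CPM in Han ++, with 3 nearly equal Han BB values above all of Han ++, and a log2 difference of 0.91 (SE 0.39, unadjusted p = 0.0461). ZP4 was at 3.06, 3.12 and 3.83 CPM in Han BB against 2.56, 0.547 and 0.846 CPM in Han ++, above in all 9 pairs, and differed by 1.32 (SE 0.64, unadjusted p = 0.0696). ZP3 was at 9.8, 4.47 and 4.71 CPM in Han BB against 5.8, 1.5 and 1.32 CPM in Han ++ and overlapped, W6 lying above W2 and W4 (log2 difference 1.12, SE 0.64). Of the 13 tested oocyte and germ cell genes 9 were higher and 4 lower, with a median of 0.53 (0.43 without W4), 1 was at an unadjusted p under 0.05 and 2 lay above in all 9 pairs. The group median was above 0 in 7 of 9 library pairs (-0.48 to 2.19), and for each Han BB library it was highest against W7. The summed level was 94.86 to 132.5 CPM in Han BB and 110.2 to 139 CPM in Han ++, which overlap. GDF9 overlapped, with 3.3, 1.28 and 4.78 CPM in Han BB against 3.48, 1.82 and 1.88 CPM in Han ++ and a log2 difference of 0.37 (SE 0.58), which was -0.05 without W4. KIT, a receptor of oocytes and theca cells, was lower (log2 difference -0.38, SE 0.26), and DPPA3, a maternal factor of the egg, differed by 2.14 with all 6 libraries and 0.55 without W4, and W4 held 6.59 CPM against at most 1.21 CPM elsewhere.

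Ovulation genes were mixed. RUNX2, a transcription factor that luteinizing hormone induces in granulosa cells, was at 13.2, 13.3 and 12.6 CPM in Han BB against 18.4, 18.3 and 27.5 CPM in Han ++, even within Han BB and below Han ++ in all 9 pairs (log2 difference -0.71, SE 0.27, unadjusted p = 0.0296). TNFAIP6, which stabilises the matrix of the expanding cumulus, was at 35.5, 8.87 and 235 CPM in Han BB against 35.8, 3.42 and 7.99 CPM in Han ++, where W4 alone was high, and its log2 difference was 2.56 with all 6 libraries and 0.50 without W4. PTGS2, which makes prostaglandins at ovulation, was at 6.17, 4.47 and 17.8 CPM in Han BB against 6.87, 5.34 and 3.29 CPM in Han ++, again highest in W4, and differed by 0.86 with all 6 libraries and 0.04 without W4. Over the 17 tested members the median was 0.08 (0.00 without W4), with 0 higher and 1 lower at an unadjusted p under 0.05.

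Of the immediate early genes, 19 of 25 were lower in Han BB, with a median of -0.19 (-0.17 without W4), 0 at an unadjusted p under 0.05 and 4 below in all 9 pairs. Among these were JUND (68, 66.8 and 23.6 against 77.3, 88.8 and 124 CPM), FOSL2 (92.1, 98.8 and 102 against 115, 132 and 139 CPM) and MYC (30.8, 37.7 and 33.6 against 40.2, 43.1 and 45.6 CPM), whose log2 differences were -0.87, -0.40 and -0.34. FOS, the member most tied to acute stimulation, was at 46, 57.5 and 91.4 CPM in Han BB against 30.6, 57.6 and 35.5 CPM in Han ++ and lay higher on average (log2 difference 0.65, SE 0.35), with W4 the highest.

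Interferon-stimulated genes leaned to Han BB in W1 and W4 but not in W2. Of 33 tested, 29 were higher, 3 of them at an unadjusted p under 0.05, 4 lay above in all 9 pairs and 0 below, and the median was 0.26 (0.16 without W4, when 23 were higher). The group median was above 0 in 7 of 9 library pairs. For W2 it was -0.29 against W6, -0.06 against W7 and 0.03 against W8. IFIT3, an antiviral RNA-binding protein, was at 48, 24.3 and 43.1 CPM in Han BB against 24, 21.6 and 16.6 CPM in Han ++, a log2 difference of 0.89 (SE 0.32). IFIT2, its partner, differed by 0.79 (SE 0.32) and IFI44 by 0.60 (SE 0.26). W2 was the lowest Han BB library in all 3 genes, and in IFIT3 and IFIT2 it lay just above the highest Han ++ library.

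Of 19 tested macrophage and myeloid genes 14 were higher in Han BB, 2 at an unadjusted p under 0.05, with a median of 0.29 (0.39 without W4). The summed level of this list was 865.7 to 1396 CPM in Han BB, and in Han ++ it was 811.6 to 1013 CPM, which overlap. CX3CR1, the fractalkine receptor of monocytes, was at 2.77, 5.75 and 3.63 CPM in Han BB against 1.98, 1.82 and 1.5 CPM in Han ++, above in all 9 pairs (log2 difference 1.18, SE 0.46), and lysozyme (LYZ.1) at 32.6, 9.44 and 31.5 CPM in Han BB against 12.5, 13.8 and 6.86 CPM in Han ++, where W2 lay within the Han ++ range (log2 difference 1.15, SE 0.48). CD68, a general macrophage marker, overlapped at 219, 135 and 69.7 CPM in Han BB against 142, 178 and 86.7 CPM in Han ++. Among 11 B cell genes, BANK1, a B cell scaffold protein, was at 8.51, 8.23 and 17.8 CPM in Han BB against 6.72, 6.07 and 4.79 CPM in Han ++ (log2 difference 0.97, SE 0.39, and 0.51 without W4) and FCRL1 lay above in all 9 pairs (log2 difference 1.11, SE 0.52). The median of these 11 was 0.25, 0.40 without W4 and -0.26 without W2.

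C1R and C1S, the proteases that start the classical complement pathway, both lay above in all 9 pairs. C1R was at 648, 505 and 421 CPM in Han BB against 299, 396 and 330.3 CPM in Han ++, with every Han BB value above every Han ++ value, and C1S at 699, 581 and 407 CPM in Han BB against 389.9, 395 and 319 CPM in Han ++. Neither passed the unadjusted threshold, and the 17 tested complement and acute phase genes had a median of 0.21 (0.34 without W4). Among 21 vascular genes 2 were higher at an unadjusted p under 0.05, ANGPT1, a ligand of the endothelial receptor TEK, at 12.2, 9.44 and 22.4 CPM in Han BB against 6.62, 7.66 and 7.43 CPM in Han ++ (log2 difference 1.02, SE 0.37), and MMRN1, an endothelial and platelet protein, at 95.8, 93.5 and 134 CPM in Han BB against 55.5, 86 and 48 CPM in Han ++ (log2 difference 0.77, SE 0.30). PECAM1, a marker of all endothelium, was above in 8 of 9 pairs (log2 difference 0.54, SE 0.27), CDH5 and VWF overlapped, and the median of the list was 0.12 (0.29 without W4).

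Homeobox, RAB and zinc finger genes were further families with most members higher in Han BB when all 6 libraries were used. Over all tested genes, 8625 of 15937 were higher. Of 25 tested HOX genes 17 were higher, with a median of 0.25 that shrank to 0.02 without W4, and the 3 above in all 9 pairs were all of the ninth paralogue group: HOXA9, HOXC9 (13.1, 14.8 and 12.8 against 8.99, 8.94 and 6.96 CPM) and HOXD9.1 (28.1, 19.6 and 17 against 11.4, 15.4 and 16.4 CPM). The HOX median was below 0 in each pair with W7 (-0.23 to -0.11). Of 48 RAB GTPases, which steer vesicle traffic, 36 were higher, 8 in all 9 pairs and 3 below in all 9. Their median of 0.17 (0.15 without W4) was above 0 in 9 of 9 library pairs (0.02 to 0.28). At an unadjusted p under 0.05, 1 was higher and 2 were lower. RAB39A (log2 difference 1.07, SE 0.43) and RAB2B (log2 difference 0.46, SE 0.22) were among the higher ones, and RAB3B, of secretory vesicles, and RAB25, of epithelial recycling endosomes, went against the family, with -0.90 (SE 0.33) and -0.84 (SE 0.35). Of 251 zinc finger genes 175 were higher, 17 in all 9 pairs and 4 below in all 9, but without W4 135 were higher and the median of 0.19 was 0.02. Over all tested genes 4.91% lay above in all 9 pairs and 4.59% below. Among those of 10 to 100 CPM 5.94% lay above, so the 17 are not far over the background. ZNF300, at 8.94, 10.6 and 9.08 CPM in Han BB against 5.75, 3.28 and 4.98 CPM in Han ++, had the smallest unadjusted p of them (log2 difference 1.03, SE 0.34, unadjusted p = 0.0143).

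Complex II of the respiratory chain is encoded in the nucleus, and SDHC and SDHD, which anchor it in the inner mitochondrial membrane, were above in all 9 pairs. Of its 4 tested subunits 3 were higher and 1 was lower (log2 difference -0.40), with a median of 0.27 (0.29 without W4). SDHC was at 61.5, 70 and 52.9 CPM in Han BB against 48.3, 34.7 and 41.6 CPM in Han ++ (log2 difference 0.56, SE 0.24) and SDHD at 66.8, 67.9 and 84.1 CPM in Han BB against 54.8, 47.7 and 56.7 CPM in Han ++ (log2 difference 0.46, SE 0.23). The protein genes of the mitochondrial genome went the other way, with 10 of 13 lower in Han BB, 1 at an unadjusted p under 0.05, 4 below in all 9 pairs, and a median of -0.27 (-0.42 without W4) that was below 0 in 9 of 9 library pairs (-0.79 to -0.04). ATP8, a subunit of ATP synthase, was at 212, 359.6 and 175 CPM in Han BB against 448, 445 and 512 CPM in Han ++ and differed by -0.91 (SE 0.32, unadjusted p = 0.0189). CYTB, the cytochrome b of complex III, was at 1167, 1483 and 1582 CPM in Han BB against 1712, 2275 and 1884 CPM in Han ++ (log2 difference -0.47), and ND4 and ND5, subunits of complex I, differed by -0.44 and -0.33. ND6, the member encoded on the opposite strand, stood out by W4 alone, at 62.3, 49 and 758 CPM in Han BB against 65.8, 108 and 59.5 CPM in Han ++, and differed by 1.90 with all 6 libraries and -0.48 without W4.

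Collagens leaned lower in Han BB. Of 26 tested, 21 were lower, 2 at an unadjusted p under 0.05, 6 lay below in all 9 pairs and 0 above, and the median was -0.36 (-0.41 without W4, with 8 lower at an unadjusted p under 0.05). COL4A2, a chain of basement membrane collagen, was at 297, 521 and 249 CPM in Han BB against 583, 559 and 894 CPM in Han ++, below in all 9 pairs although W2 came near W7, and differed by -0.93 (SE 0.36). COL4A1, its partner chain, was at 442, 752 and 472 CPM in Han BB against 911, 752 and 1311 CPM in Han ++, with W2 and W7 level (log2 difference -0.84, SE 0.33). COL1A1, the main fibrillar collagen, was at 3275, 3396 and 1713 CPM in Han BB against 3725, 5108 and 5494 CPM in Han ++, with W4 the lowest of all (log2 difference -0.77, SE 0.35, and -0.51 without W4). COL1A2 and COL3A1 had no row under those names.

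Epithelial genes also leaned lower. Of 14 keratins 13 were lower in Han BB, with a median of -0.48 (-0.62 without W4) below 0 in 9 of 9 library pairs (-1.17 to -0.10). KRT18, of simple epithelia, was at 27.8, 50 and 37.8 CPM in Han BB against 66.2, 59.7 and 59.2 CPM in Han ++ (log2 difference -0.68, SE 0.27, unadjusted p = 0.0326), KRT19, of the ovarian surface epithelium, at 83.3, 91.3 and 81.9 CPM in Han BB against 112, 101 and 125 CPM in Han ++ (log2 difference -0.40, SE 0.22), and both lay below in all 9 pairs, as did KRT77, which had under 2 CPM. The 14 tested surface and epithelial genes, which hold KRT18 and KRT19 too, had a median of -0.28 (-0.40 without W4).

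Markers of oviduct secretory cells were lower in 5 of 8 tested, with a median of -0.31 (-0.58 without W4) below 0 in 9 of 9 library pairs, and a summed level of 2233 to 2864 CPM in Han BB against 2834 to 3307 CPM in Han ++. PAX8, the transcription factor of this lineage, was at 9.28, 5.96 and 3.16 CPM in Han BB against 14.2, 9.53 and 10.4 CPM in Han ++ (log2 difference -0.89, SE 0.42) and TFF3, a trefoil peptide like TFF2, at 4.5, 8.16 and 1.14 CPM in Han BB against 10.7, 11 and 9.78 CPM in Han ++ (log2 difference -1.19, SE 0.58), each below in all 9 pairs. OVGP1 itself overlapped, at 1007, 849 and 1126 CPM in Han BB against 1849, 768 and 1650 CPM in Han ++. The part of oviduct tissue in the epithelial differences was not tested.

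**Figure D4:**
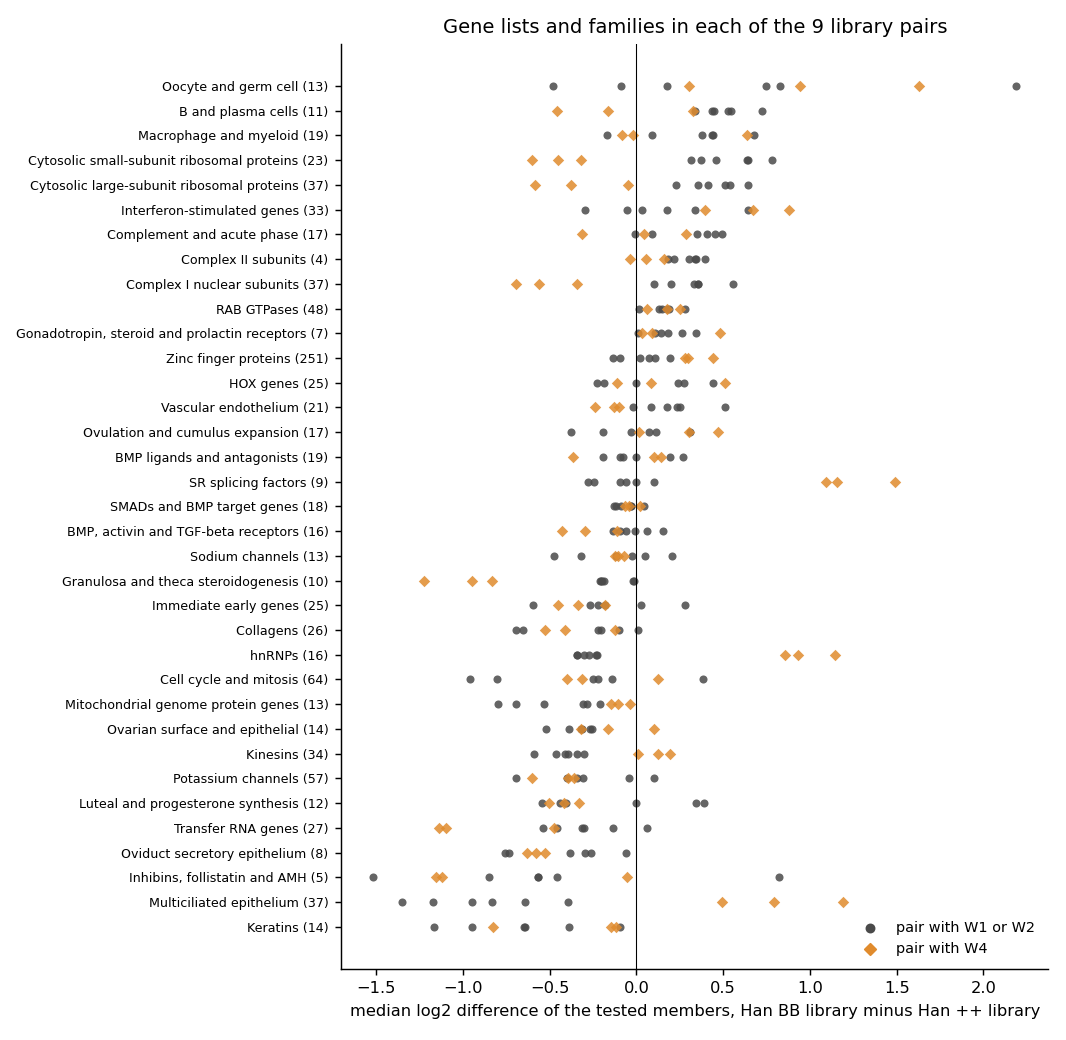
Median log2 difference, Han BB minus Han ++ (horizontal axis), of each of 35 gene groups (rows, sorted) in each of the 9 library pairs, with the 3 pairs that include W4 drawn as orange diamonds. The keratins, the mitochondrial genome, the oviduct secretory and the granulosa and theca genes lie left of 0 in all 9 pairs and the RAB GTPases and the gonadotropin, steroid and prolactin receptors right of it, while the diamonds of the multiciliated, SR and hnRNP groups lie far right of the other 6 points.

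Mitotic genes were lower on balance. Of 64 tested cell cycle genes 49 were lower in Han BB, with a median of -0.25 (-0.31 without W4), but 0 had an unadjusted p under 0.05 and the group median was above 0 in 2 of 9 library pairs. MKI67, a marker of dividing cells, was at 40.7, 128 and 78.5 CPM in Han BB against 117, 143 and 183 CPM in Han ++, where W1 was lowest and W2 lay within the Han ++ range (log2 difference -0.84, SE 0.40). BUB1, a spindle checkpoint kinase, lay below in all 9 pairs (log2 difference -0.57, SE 0.28), and TOP2A overlapped at 42.5, 75.2 and 144 CPM in Han BB against 125, 88.5 and 91.5 CPM in Han ++. Of 34 kinesins 22 were lower, with a median of -0.12, and without W4 3 were higher, 7 were lower at an unadjusted p under 0.05 and the median was -0.40. With all 6 libraries 4 were lower at an unadjusted p under 0.05, namely the mitotic KIF18B (log2 difference -1.67, SE 0.70), the ciliary KIF17 (log2 difference -1.41, SE 0.59), the axonal KIF5A (log2 difference -2.12, SE 0.89) and KIF1C (log2 difference -0.56, SE 0.24), of which KIF1C was the abundant one at 74.8, 97.5 and 96.5 CPM in Han BB against 115, 151 and 131 CPM in Han ++.

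Ion channel genes were mostly low, and the potassium channel genes leaned lower in Han BB. Low genes as a whole leaned the same way. Their median log2 difference was -0.34 under 1 CPM and -0.09 between 1 and 10 CPM, and 6.69% and 6.38% of them lay below in all 9 pairs. Whether the groups below differ from other genes of their level was not tested. Of 57 potassium channel genes 42 were lower, 1 at an unadjusted p under 0.05 and 5 in all 9 pairs, with a median of -0.32 (-0.25 without W4). KCNRG, a regulator of potassium channels, was at 4.02, 0.639 and 2.83 CPM in Han BB against 12.9, 10.7 and 3.85 CPM in Han ++ (log2 difference -1.87, SE 0.67) and KCNJ3, an inward rectifier, at 1.43, 1.06 and 1.08 CPM in Han BB against 2.08, 2.83 and 2.44 CPM in Han ++ (log2 difference -1.03, SE 0.51). SCN10A and SCN9A, sodium channels of sensory neurons, were at 1.34, 1.49 and 0.538 against 2.42, 4.61 and 3.1 CPM and 1.43, 2.84 and 2.89 against 4.45, 3.79 and 12.7 CPM, both below in all 9 pairs (-1.58 and -1.54), although the 13 sodium channel genes as a whole had a median of 0.01 (0.03 without W4). Of the 1565 rows of transfer RNA genes only 27 had enough reads to test, with a median of -0.32 (-0.48 without W4), 7 of these lay below in all 9 pairs and 1 above, and 3 had an unadjusted p under 0.05, among them TRNAV-AAC.9 (0.956, 1.42 and 0.74 against 3.77, 2.6 and 3.48 CPM). Transfer RNA genes come in many near-identical copies, so the copy that a read belongs to is uncertain.

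Of the 35 gene groups described, the multiciliated genes had the median that shifted most without W4. With all 6 libraries, 21 of 37 tested multiciliated genes were lower and 16 higher in Han BB, 4 were lower at an unadjusted p under 0.05 and the median was -0.12. Without W4, 37 of 37 were lower, 25 of them at an unadjusted p under 0.05, and the median was -0.97. The summed level was 726.7 CPM in W1, 582.0 in W2 and 1898 in W4, against 1318, 1173 and 890.6 CPM in Han ++. W4 was thus above, and W1 and W2 below, every Han ++ ewe. Whether the number of ciliated cells differed was not tested.

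Within this group the genes did not behave alike in W4. RSPH1, of the radial spoke head, was at 9.18, 8.23 and 67.8 CPM in Han BB against 39.9, 33.2 and 6.68 CPM in Han ++ and MNS1, which lies inside the doublet microtubules of cilia, at 5.31, 6.81 and 85.8 CPM in Han BB against 17.4, 10.9 and 10.4 CPM in Han ++, both highest in W4. With all 6 libraries RSPH1 differed by 0.09 and MNS1 by 1.33, and without W4 by -1.62 and -1.09. FOXJ1, the transcription factor that commits cells to motile cilia, was at 5.88, 3.41 and 2.89 CPM in Han BB against 11.4, 8.39 and 8.74 CPM in Han ++, lowest in W4 and below in all 9 pairs, with a log2 difference of -1.22. ZMYND10, a dynein assembly factor, at 14.8, 10.9 and 10.6 CPM in Han BB against 22.7, 24.5 and 16.6 CPM in Han ++ (log2 difference -0.82, SE 0.29), and TPPP3, a tubulin-binding protein, at 128, 115 and 66.9 CPM in Han BB against 198, 160.0 and 162 CPM in Han ++ (log2 difference -0.75, SE 0.29), were also below in all 9 pairs, as was RSPH9 (log2 difference -0.56, SE 0.29). DNAH9, a dynein arm motor, was at 51.6, 42.6 and 67.9 CPM in Han BB against 57.7, 63.7 and 67.9 CPM in Han ++ and overlapped.

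Cytosolic ribosomal proteins were higher in Han BB in W1 and W2 and lower in W4. Of 37 large-subunit genes 32 were higher, with a median of 0.24 (0.47 without W4), and of 23 small-subunit genes 21, with a median of 0.26 (0.53 without W4). Both medians were above 0 in the 6 library pairs without W4 and below 0 in the 3 with it. The number at an unadjusted p under 0.05 was 1 and 3 with all 6 libraries and 20 and 17 without W4, all of them higher in Han BB. The summed level of the large-subunit genes was 69300 and 65050 CPM in W1 and W2, 41560 CPM in W4, and 44940 to 54800 CPM in Han ++.

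A smaller number of ribosomal protein genes were higher in every Han BB ewe, W4 included, 10 of the large and 4 of the small subunit. RPS13 was at 244, 198 and 373 CPM in Han BB against 154, 118 and 132 CPM in Han ++ (log2 difference 1.01, SE 0.30, unadjusted p = 0.00833), RPS26 at 614, 574 and 936 CPM in Han BB against 368, 318 and 393 CPM in Han ++ (log2 difference 0.98, SE 0.29, unadjusted p = 0.00798), and in both W4 was the highest. RPS23 was at 929, 727 and 1031 CPM in Han BB against 448, 617 and 643 CPM in Han ++ (log2 difference 0.65, SE 0.28) and RPS15A at 2060, 1948 and 1907 CPM in Han BB against 1496, 1251 and 1300 CPM in Han ++ (log2 difference 0.55, SE 0.25). RPL36A, at 1157, 1240 and 1475 CPM in Han BB against 825, 742 and 971 CPM in Han ++, was the only large-subunit gene of the 37 with an unadjusted p under 0.05 (log2 difference 0.61, SE 0.26, unadjusted p = 0.045), and RPL15, RPL21 and RPL23 differed by 0.50, 0.52 and 0.53. Ribosomal protein genes have many processed pseudogenes, so reads that align to more than 1 place may be missing from these counts.

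The nuclear subunits of complex I followed W4 in the same way as the ribosomal proteins. Of 37, 22 were higher in Han BB with all 6 libraries and 35 without W4, and the median moved from 0.09 to 0.32. The 20 tested Sm and LSm proteins of the spliceosome, too, had a median of 0.11 that was 0.24 without W4 and below 0 in the 3 pairs with W4. SR factors and hnRNPs, which guide splicing, went opposite. The SR factor SRSF1 was at 124, 135 and 540.2 CPM in Han BB against 158, 172 and 198 CPM in Han ++ and SRSF5 at 116, 95.1 and 298 CPM in Han BB against 99, 95.6 and 88 CPM in Han ++, and HNRNPA2B1, an RNA-binding protein of the spliceosome, at 322, 359 and 2717 CPM in Han BB against 565, 619.9 and 496 CPM in Han ++. W4 was the highest library in all 3. Their log2 differences with all 6 libraries were 0.60, 0.85 and 1.01, in that order, and without W4 -0.43, 0.17 and -0.71. The medians of the 9 SR factors and 16 hnRNPs, 0.52 and 0.36, were -0.01 and -0.25 without W4.

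**Figure D5:**
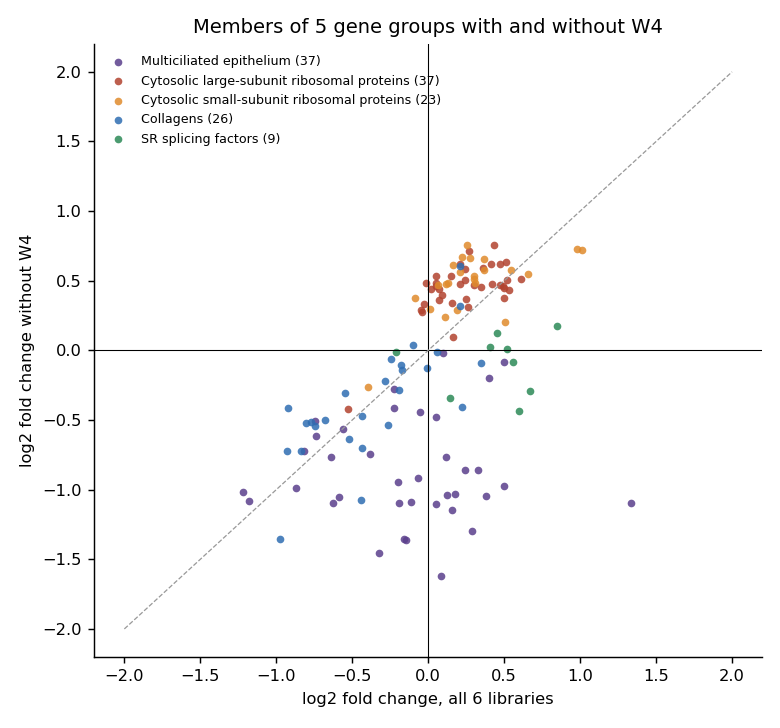
Log2 difference, Han BB minus Han ++, of each member of 5 gene groups without W4 (vertical axis) against that with all 6 libraries (horizontal axis), with the diagonal as the line of no change. All 37 multiciliated genes lie below 0 on the vertical axis, and 36 of 37 large-subunit and 22 of 23 small-subunit ribosomal protein genes lie above it.

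Genes tabulated by the study as transcripts with methylated regions in these genotypes were also followed. The table holds more genes than the text of the study counts, and all of them are given. TMEFF2, a membrane protein with follistatin domains, was at 3.59, 3.83 and 2.83 CPM in Han BB against 1.3, 1.32 and 1.6 CPM in Han ++, above in all 9 pairs (log2 difference 1.28, SE 0.45, unadjusted p = 0.0207). PAGE4 (LOC101103624) was at 2.01, 3.12 and 3.36 CPM in Han BB against 0.387, 0.958 and 0.188 CPM in Han ++ (log2 difference 2.40, SE 0.70, unadjusted p = 0.00801), and GPR116, an adhesion receptor also called ADGRF5 that is found on endothelium, at 60, 79.2 and 77.4 CPM in Han BB against 40.9, 54.7 and 36 CPM in Han ++ (log2 difference 0.72, SE 0.26, unadjusted p = 0.0214), both without overlap. GAB3 (LOC101103296), at 6.12, 5.25 and 5.65 CPM in Han BB against 4.01, 3.15 and 4.04 CPM in Han ++, and ADAT2, a tRNA editing enzyme, at 4.78, 4.75 and 4.91 CPM in Han BB against 3, 2.05 and 3.67 CPM in Han ++, also lay above in all 9 pairs. AK5, an adenylate kinase, was at 18.4, 20.4 and 11.8 CPM in Han BB against 4.93, 7.57 and 11.9 CPM in Han ++, where W4 and W8 were level (log2 difference 1.06, SE 0.39).

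The other genes of this list were lower in Han BB. MUSK, the receptor kinase of the neuromuscular junction, was at 17.7, 38.2 and 10.1 CPM in Han BB against 56.1, 65.5 and 75.3 CPM in Han ++, all 3 Han BB values being below (log2 difference -1.58, SE 0.45, unadjusted p = 0.00664). PLB1, a phospholipase, was at 0.861, 2.63 and 1.28 CPM in Han BB against 6.33, 4.83 and 6.02 CPM in Han ++, again without overlap (log2 difference -1.86, SE 0.50, unadjusted p = 0.00516). FOXP3, the transcription factor of regulatory T cells, had 0, 1 and 1 reads in Han BB and 7, 14 and 9 in Han ++, too few to be tested. These genes had been picked with the expression of the same libraries in view, so their directions are a description and not independent evidence.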

How the data were processed

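Total RNA of whole ovaries from 3 Han BB and 3 Han ++ ewes was sequenced by the authors as paired-end RNA-seq. The study's methods state that reads were aligned to the sheep genome Oar_v3.1 with TopHat and that uniquely mapped reads were used. The deposited table holds raw read counts per gene, whole numbers with no normalization. Which program counted the reads, and whether it used strand, is not stated in the sources read.

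Totals were 10803913 to 20992535 counts per library, and the number of ewes limits the precision more than this depth. Columns were assigned to libraries by their names, and groups follow the breed and genotype labels. Counts of the 6 libraries were tested with edgeR 4.0.16 (R 4.3.3): filterByExpr, TMM factors, quasi-likelihood F-test on genotype, Benjamini-Hochberg adjustment over all 15937 tested genes, with a call at 0.05 for the adjusted p together with 1.5 for the fold change. CPM were computed with the TMM factors. DESeq2 1.42.0, limma 3.58.1 (voom with sample quality weights), a fit of all 9 libraries, other size factors, other count filters and leaving out each library in turn were alternatives. The edgeR and DESeq2 scripts were tested on simulated counts.

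Genes named are BMPR1B, genes called by any tool on the 6 libraries, the 10 with the smallest p, the 10 largest differences in each direction (symbols that are not LOC numbers, mean of at least 1 CPM, all 9 pairs one way), defining markers and the members of smallest p in each group, and the list from the methylation comparison. BMPR1A, RAB2B, CD68, CDH5, VWF, RSPH9, MNS1, HNRNPA2B1, SRSF5, BMP1 and other members given only as context were added after their values were seen. The members and lists were chosen with earlier results of these data known, so no test of a whole list was made. For the 1071 symbols with more than 1 row, the row with most reads stood for the symbol in the lists. Of 27174 rows, 18590 matched the RefSeq gene table of ARS-UI_Ramb_v3.0, which was used for names and gene types only.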

Additional observations from a re-analysis of the deposited data

How the results depend on the processing

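No gene was called by edgeR on the 6 libraries, and 0 to 1 were called when 1 library was left out (LOC101104797 without W4 and LOC101107743 without W8). LOC101107743, a locus with copies, was at 122.8, 106 and 58.7 CPM in Han BB and 0.532, 0.365 and 87.3 CPM in Han ++. DESeq2 called 4. The number of genes higher in Han BB at an unadjusted p under 0.05 was 232, but 148 in a fit of all 9 libraries, 729 with limma voom and 84 to 846 when 1 library was left out. The number lower was 220, but 437 with no count filter, 446 with DESeq2, 688 with limma voom and 100 to 737 when 1 library was left out. Genes higher in all pairs numbered 782, or 1159 to 2493 with 1 library left out, and genes lower in all pairs 731, or 1103 with no count filter and 1103 to 2251 with 1 library left out, where there are 6 pairs in place of 9. At an unadjusted p under 0.05, 846 were higher and 737 lower without W4, 438 and 561 without W2, 115 and 215 without W7, and 84 and 100 without W8. Another scaling or a filter of at least 1 CPM in 3 libraries moved none of these counts by more than 1.5 times.

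Of 143 named genes, 11 changed sign in some alternative. Their log2 differences, as lowest and highest with 1 library left out, ran from -0.046 to 0.28 for ID1, from -0.54 to 0.10 for ID3, from -0.37 to 0.40 for STAR, from -1.33 to 0.24 for CYP11A1, from -0.052 to 0.76 for GDF9, from -0.48 to 2.41 for ND6, from -1.62 to 0.53 for RSPH1, from -0.79 to 0.11 for TOP2A, from -0.43 to 0.95 for SRSF1, from -1.09 to 1.85 for MNS1 and from -0.71 to 1.47 for HNRNPA2B1. With limma voom ID3 was at 0.19, ND6 at -0.25, RSPH1 at -1.42, SRSF1 at -0.31, MNS1 at -0.98 and HNRNPA2B1 at -0.58. The negative values of GDF9, ND6, SRSF1, MNS1 and HNRNPA2B1 were those without W4, and RSPH1 was at -0.36 without W8. The cause was not tested. Of the medians of the 35 gene groups over all alternatives, 408 moved by less than their spread over library pairs and 12 by more. That spread includes the pairs with W4, so it is wide for groups in which W4 stood apart. A change of sign was not counted. The hnRNP median, 0.36 with all 6 libraries and -0.25 without W4, was among the 408, so this count does not show that medians were stable without W4. Low counts limit genes under 1 CPM most. No paired analysis was possible because the labels give no replicate numbers that the genotypes share.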
